A study of Mus musculus with 2 samples.

Results

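The genes described are 9 heavy chains of the major histocompatibility complex (MHC) class I, H2-K1, H2-D1, H2-Q4, H2-Q6, H2-Q7, H2-T22, H2-T23, H2-T24 and H2-M3, together with B2m, the gene of their shared light chain. They were taken by symbol from the deposited tables and make up 10 of 55536 annotated genes, 22028 of which are protein-coding. The RNA came from the nucleoplasm of C57BL/6J bone marrow-derived macrophages, cells grown in culture from precursors in mouse marrow, and was sequenced as total RNA after removal of ribosomal RNA. Before collection the cells had received Lipid A, the part of bacterial lipopolysaccharide sensed by Toll-like receptor 4, at 100 ng/ml over 12 h, and a washout of 12 h followed. They were collected at the 0 min point of restimulation with 100 ng/ml. The series holds this 1 group with 2 biological replicates, made from 1 µg (replicate 1) and 500 ng (replicate 2) of RNA. The labels name a biosample of its own for each replicate but the same donor entry, and do not say whether different animals were used. No untreated or otherwise treated group was analysed here, so levels and the spread between the 2 libraries are described, with no test between conditions.

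A class I molecule is a heavy chain that spans the membrane or is anchored in it, joined to beta-2 microglobulin, and it carries a short peptide or another ligand to the cell surface. H2-K1 and H2-D1 encode the classical heavy chains, which show peptides from the cell's own proteins to CD8 T cells. The Q, T and M genes encode nonclassical heavy chains with narrower roles: H2-Q7 encodes a Qa-2 antigen, H2-T23 encodes Qa-1, which is read by CD94/NKG2 receptors, H2-T22 is a ligand of some gamma-delta T cells, and H2-M3 presents N-formylated peptides such as those of bacteria. Class I genes are known targets of interferon and NF-kappaB signalling and of the coactivator Nlrc5.

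The gene-level tables assigned 22907877 expected counts to annotated genes in replicate 1 and 18612405 in replicate 2. The labelled cell type was checked against its markers. All 12 macrophage markers reached 10 TPM in each library, where 19.7% of protein-coding genes did. The highest marker, the lysozyme gene Lyz2, had 1247 ± 172 TPM (SD, n = 2). TPM is an abundance per transcript length, scaled to a fixed total in each library. All markers of T, B, NK, dendritic, neutrophil and stromal cells stayed under 1 TPM in each library of the gene-level tables. So did 11700 of the 22028 protein-coding genes. The highest of these markers were Cd3d at 0.0600 TPM, Cd79b at 0.775 TPM, Zbtb46 at 0.740 TPM, S100a8 at 0.425 TPM and Col1a2 at 0.0900 TPM on average, and all 3 NK cell markers had no count. In the second quantification, a further deposited set of transcript values from the same libraries, Cd3d stood higher, with values of 1.76 and 4.20 TPM. In bulk RNA, fewer cells of a type and less RNA per cell cannot be told apart.

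The promoters of the class I genes carry short sequence elements known as a kappaB site, an interferon response element, a CRE core and a CCAAT box, the last of which often lies on the opposite strand and then reads ATTGG. RefSeq promoters of GRCm38.p6, each reaching from 250 bases before to 50 bases after a transcript start, were matched by symbol for 9 of the 10 genes, all but H2-T24. The RefSeq start of H2-D1 (35263094) lies downstream of its GENCODE start (35262730), so its whole window falls inside the GENCODE gene. For H2-T23 the RefSeq start (36032701) also lies downstream of the GENCODE start (36032855), and its interferon element falls inside the GENCODE gene. Stretches of 5 of the promoters are shown as examples, each with an interferon element ahead of a CCAAT box. H2-D1, which holds the elements in the order of H2-K1, is not among them. Of the stretches, those of H2-M3 and B2m lack the kappaB match, that of H2-Q6 lacks the CRE core and that of H2-M3 opens with ATTGG. All are written 5′ to 3′ along the gene, and capitals mark the motif matches.
H2-K1 promoter, chr17:34000353-34000463, minus strand: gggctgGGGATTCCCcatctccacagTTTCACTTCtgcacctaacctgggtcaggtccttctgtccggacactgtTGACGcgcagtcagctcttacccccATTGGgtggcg
H2-Q6 promoter, chr17:35424672-35424805, plus strand: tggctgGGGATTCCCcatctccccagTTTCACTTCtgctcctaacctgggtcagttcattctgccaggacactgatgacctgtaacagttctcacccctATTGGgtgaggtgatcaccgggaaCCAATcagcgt
H2-Q7 promoter, chr17:35439017-35439149, plus strand: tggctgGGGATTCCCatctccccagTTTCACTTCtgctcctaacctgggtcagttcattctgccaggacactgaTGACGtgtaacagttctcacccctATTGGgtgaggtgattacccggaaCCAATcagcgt
H2-M3 promoter, chr17:37270099-37270219, plus strand: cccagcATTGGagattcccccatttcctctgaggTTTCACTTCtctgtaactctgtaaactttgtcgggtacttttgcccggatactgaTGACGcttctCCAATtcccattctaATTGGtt
B2m promoter, chr2:122147542-122147644, plus strand: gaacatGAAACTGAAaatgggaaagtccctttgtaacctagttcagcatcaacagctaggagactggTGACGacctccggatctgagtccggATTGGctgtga

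The 5 motifs were searched on both strands, with letters picked while the class I promoters were known and after longer forms of the kappaB and interferon elements had been tried. The kappaB core GGGATTCCC stood in the promoters of 4 of the 9 genes, H2-K1, H2-D1, H2-Q6 and H2-Q7, and in 0.353% of all 32851 promoters in the table, or 116 of them. The interferon response element, searched as GAAANNGAA, was found for B2m, H2-T23 and H2-T22 and in 8.56% of all promoters. A class I form of it, GAAGTGAAA, was found for the other 6 genes (H2-K1, H2-D1, H2-Q4, H2-Q6, H2-Q7 and H2-M3), where it reads TTTCACTTC on the gene's strand, and in 0.505% of all promoters. Each of the 9 genes therefore held 1 of the forms, against 8.95% of all promoters. The CRE core TGACG was present for 7 of the 9 genes and in 20.8% of all promoters, and the stretches above show a match in H2-Q7 that H2-Q6 lacks. CCAAT was present for 9 of 9 and in 37.4%. An interferon element, TGACG and CCAAT stood together for 7 of the 9 genes and in 0.627% of all promoters. A match is a match of letters and no measurement of binding, and some of these genes are copies of each other, so that their promoters are not independent.

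**Figure D1:**
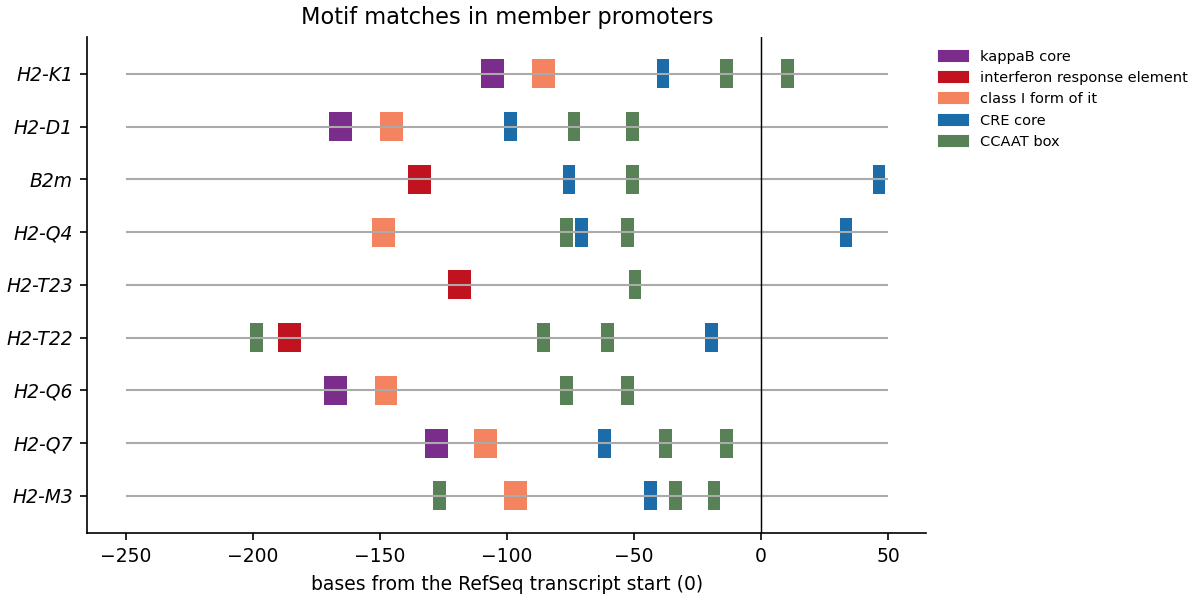
Positions of the motif matches in the promoters of 9 class I genes, in bases from the RefSeq transcript start (0), each gene on its own line and each motif in its own colour; of the pair of H2-K1 starts, the one nearest the GENCODE start is drawn. All 9 lines carry an interferon response element or its class I form, and 4 carry the kappaB core.

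By gene-level TPM, H2-K1 and H2-D1 had the highest levels of the heavy chains, and B2m stood between them and the nonclassical genes. H2-K1 (ENSMUSG00000061232.16, mm10 chromosome 17, 33996017 to 34000347, minus strand) was measured at 2606 TPM in replicate 1 and at 2090 in replicate 2, or 2348 ± 365 TPM (SD, n = 2), from 64226 and 32862 expected counts. H2-D1 (ENSMUSG00000073411.11, chromosome 17, 35262730 to 35267499, plus strand) had 1830 and 1077 TPM, or 1453 ± 533 TPM, from 86863 and 42573 counts. B2m (ENSMUSG00000060802.8, chromosome 2, 122147686 to 122153083, plus strand) had 817 and 678 TPM, or 747 ± 98.4 TPM, from 14838 and 10720 counts. For these 3 genes, the lower library of the gene above lay over the higher library of the gene below, so the ranges of these gene-level TPM did not overlap. Among the 22028 protein-coding genes H2-K1 ranked 9 by mean TPM, H2-D1 17 and B2m 28. Directly above H2-K1 stood mt-Nd4 (3021 ± 1636 TPM) and directly below it mt-Nd2 (1910 ± 1340 TPM), genes of the mitochondrial respiratory chain whose spread between libraries was wider than that of H2-K1. The place of H2-K1 in this order and its rank rest on 1 short transcript, H2-K1-215. Without that transcript H2-K1 had 1626 and 805 TPM, a range that overlapped that of B2m. H2-K1 then ranked 19 by its mean of 1215 TPM, behind H2-D1 at 16.

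Of the nonclassical genes, H2-Q4 and H2-T23 were highest. H2-Q4 (ENSMUSG00000035929.11, chromosome 17, 35379617 to 35385290, plus strand) had 319 and 221 TPM, or 270 ± 69.7 TPM. H2-T23, the Qa-1 gene (ENSMUSG00000067212.8, chromosome 17, 36029773 to 36032855, minus strand), had 324 and 187 TPM, or 255 ± 97.1 TPM. By gene-level TPM, which of the pair was higher differed between the libraries, and their means differed by 14.6 TPM, less than the SD of either. H2-T22 (ENSMUSG00000056116.18, chromosome 17, 36037128 to 36042747, minus strand) followed at 176 and 92.0 TPM, or 134 ± 59.2 TPM, and its range lay below that of H2-T23. In the second quantification H2-Q4 was above H2-T23 in both libraries, with 137 against 122 TPM in replicate 1 and 139 against 99.8 TPM in replicate 2.

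H2-Q6 (ENSMUSG00000073409.12, chromosome 17, 35424850 to 35430055, plus strand) had 134 and 80.8 TPM, or 107 ± 37.5 TPM. H2-T24, a nonclassical heavy chain gene of the T region (ENSMUSG00000053835.17, chromosome 17, 36005695 to 36020560, minus strand), had 116 and 75.3 TPM, or 95.5 ± 28.6 TPM. H2-Q7 (ENSMUSG00000060550.16, chromosome 17, 35439155 to 35443773, plus strand) had 106 and 67.3 TPM, or 86.9 ± 27.7 TPM. The ranges of H2-T22, H2-Q6, H2-T24 and H2-Q7 overlapped from each to the next, although all kept this order in both libraries of the gene-level tables. The second quantification put H2-T24 above H2-Q6, with 74.4 against 58.8 TPM in replicate 1 and 62.0 against 48.9 TPM in replicate 2. H2-M3 (ENSMUSG00000016206.6, chromosome 17, 37270220 to 37274484, plus strand) was lowest at 36.1 and 22.4 TPM, or 29.3 ± 9.62 TPM, and its range lay below those of the other 9 genes.

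**Figure D2:**
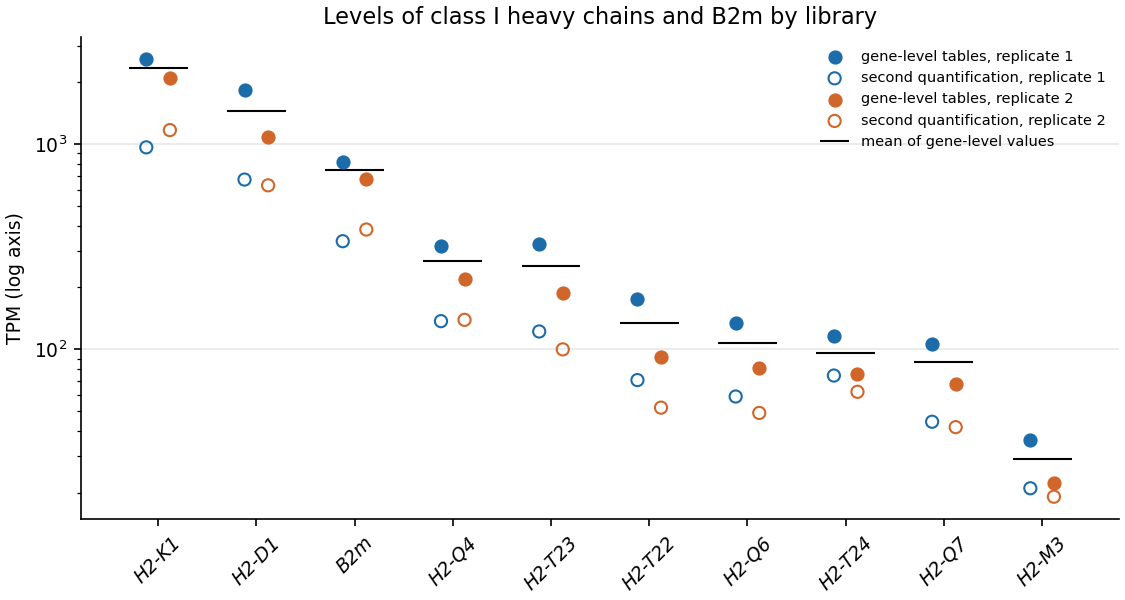
Levels of the 10 genes in TPM on a log axis, ordered by mean, with filled points for the gene-level tables, open points for the second quantification, blue for replicate 1, orange for replicate 2 and black lines for the gene-level means. Means run from 2348 TPM for H2-K1 to 29.3 TPM for H2-M3, and every open point lies below the filled point of the same library.

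All 10 genes reached 10 TPM in each library, where 19.7% of protein-coding genes did, and 5 of 10 reached 100 TPM, against 1.24% of protein-coding genes. Their values summed to 2.35% of protein-coding TPM in replicate 1 and 1.55% in replicate 2. H2-K1 and H2-D1 made up 78.6% of the heavy-chain TPM in replicate 1 and 81.0% in replicate 2. Summed heavy chains stood at 6.91 times B2m in replicate 1 and 5.77 times in replicate 2 by TPM. Over protein-coding transcripts alone these ratios were 5.08 and 3.41, so the size of the excess over B2m depends on which transcripts are summed. In the second quantification all 10 genes had a lower TPM than in the gene-level tables in both libraries, as had 79.1% of protein-coding genes with mean counts of 100 or more.

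Which of the classical heavy chains was higher depended on the transcripts that were summed. By gene-level TPM H2-K1 stood at 1.42 times H2-D1 in replicate 1 and 1.94 times in replicate 2. Over protein-coding transcripts alone the order was the opposite in both libraries. H2-K1 then had 1374 and 686 TPM and H2-D1 1789 and 1035 TPM, ratios of 0.768 and 0.662, and the second quantification gave 0.776 and 0.605. By expected counts, which are not per length, the ratios were 0.739 and 0.772.

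The transcript on which this turned was H2-K1-215, annotated as a retained intron. It is 457 bases long in 2 exons and lies at the 3′ end of the gene (chr17:33996106-33996503 and chr17:33996616-33996674, minus strand). It was given 980 and 1286 TPM in replicates 1 and 2, which was 37.6% and 61.5% of the TPM of H2-K1, but only 9.91% and 23.3% of its counts. TPM divides by effective length, and that of H2-K1-215 was 224 and 243 bases. Of its 457 bases, 437 also lie in exons of H2-K1-201, the highest protein-coding transcript. The 20 bases that do not (33996655 to 33996674) open its first exon, which is shown whole with those bases in capitals because no other base of H2-K1-215 lies outside H2-K1-201.
H2-K1-215 first exon, chr17:33996616-33996674, minus strand, 5′ to 3′, from the GENCODE transcript: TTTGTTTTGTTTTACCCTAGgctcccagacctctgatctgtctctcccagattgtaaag

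H2-K1-201 had 1037 and 573 TPM, or 39.8% and 27.4% of the gene. Taken without H2-K1-215, the TPM of H2-K1 was 0.889 and 0.747 of H2-D1, and in the second quantification 0.899 and 0.690 of it. The posterior SD of the count, the quantifying program's own measure of how far reads could be placed, was 98.5 for H2-K1-215 and 246 for H2-K1-201 in replicate 1, against 6363 and 41690 counts. For whole genes it was at most 11.5 counts (H2-T22), and 0 for B2m, H2-T24 and H2-M3. Whether reads of the shared bases came from the short transcript or from the end of longer ones was not tested.

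In H2-D1 retained-intron transcripts held little, 2.26% of transcript TPM in replicate 1 and 3.82% in replicate 2, and H2-D1-202, a protein-coding transcript, held most of the gene with 1573 and 896 TPM. H2-K1, with 46.5% and 66.6%, differed from it by more than the spread between libraries. Without H2-K1-215, retained-intron transcripts held 14.3% and 13.2% of the H2-K1 TPM. In H2-Q7 the share was 56.3% and 73.5%. There it rested on H2-Q7-206, a transcript of 4209 bases with 2729 bases (64.8%) in no exon of a protein-coding transcript of the gene. H2-Q7-206 had 47.8 and 41.4 TPM and held 74.7% and 85.0% of the counts of H2-Q7. H2-Q7-201, the highest protein-coding transcript, had 28.3 and 12.1 TPM.

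By TPM, the retained-intron share was 16.3% and 15.6% in H2-Q4, 24% and 26.2% in H2-T23 and 20.6% and 24% in H2-T22. Their highest transcripts, H2-Q4-201 (267 TPM in replicate 1), H2-T23-201 (246 TPM) and H2-T22-202 (77.3 TPM), are all protein-coding. These 3 genes lay below H2-K1 by TPM, but above it once H2-K1-215 was taken away. By counts H2-T23 (31.2% and 34.9%) and H2-T22 (33.0% and 37.5%) lay above H2-K1 (17.2% and 30.2%) in both libraries. In H2-T22 a further protein-coding transcript came close, since H2-T22-203 had 59.0 and 28.7 TPM beside 77.3 and 37.6 TPM for H2-T22-202, and H2-T22-204, with a retained intron, had 36.2 and 22.1 TPM. B2m, H2-Q6, H2-T24 and H2-M3 have no annotated retained-intron transcript. In those 4 genes B2m-201, H2-Q6-202, H2-T24-201 and H2-M3-201 were highest, and only H2-T24 had TPM in another transcript.

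Over the 6 genes with such a transcript the median share was 23.7% ± 1.99 (SD, n = 2 libraries), beside 30.0% ± 1.02 over the 6143 protein-coding genes that have one and reached 1 TPM in each library. One of the 6 genes, H2-Q7, was over 50% in both libraries, where 15.4% of all such genes were. By counts the median of the 6 was 29.8% and that of all 6143 genes 17.8%, so that the median of the 6 lay below that of all such genes by TPM and above it by counts.

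**Figure D3:**
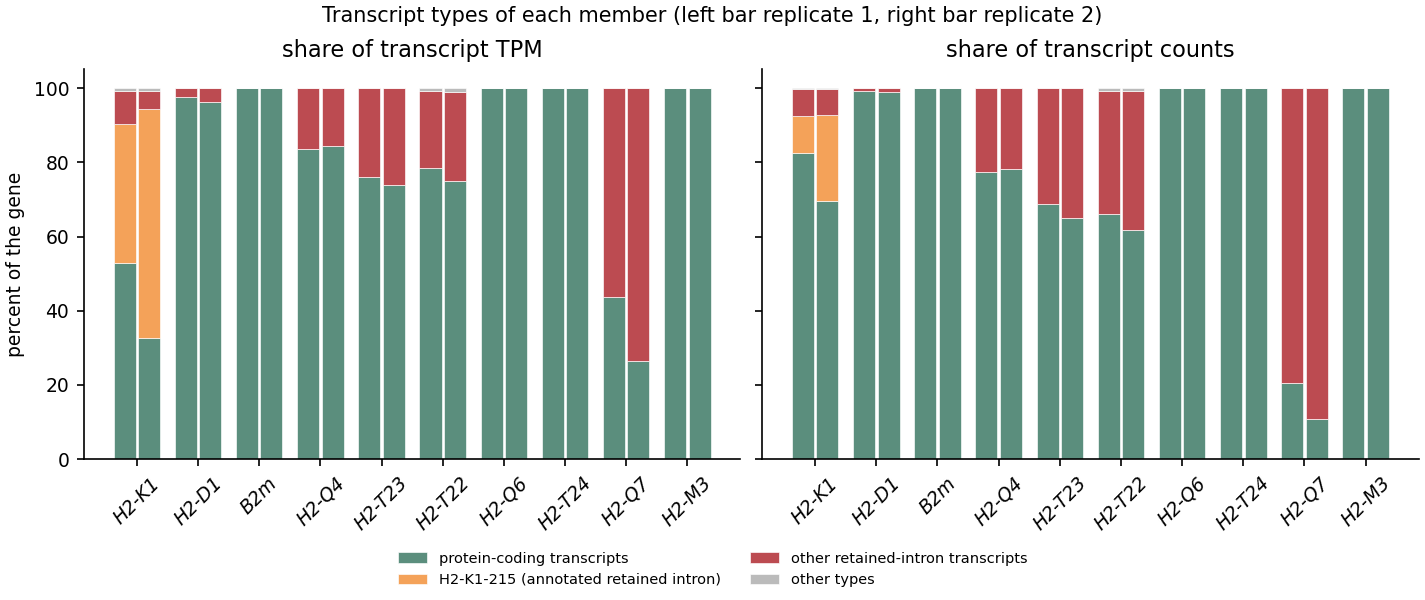
Share of each gene's transcript TPM (left panel) and transcript counts (right panel), in percent, by annotated transcript type, with replicate 1 as the left bar and replicate 2 as the right bar of each pair. H2-K1-215 fills 37.6% and 61.5% of the H2-K1 bars by TPM but 9.91% and 23.3% by counts, while retained introns fill most of H2-Q7 on both scales.

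The heavy chains resemble each other in sequence, which bears on how surely reads can be given to a gene. Over the 36 pairs of heavy chains, coding sequences were 63.0% to 95.4% identical, with a median of 73.6%. H2-K1 and H2-D1 were 91.4% identical. H2-Q6 and H2-Q7 were closest, with 45 of 978 aligned coding bases different and a run of 265 bases the same. Their most different stretch of 60 coding bases within an exon is given from the GENCODE transcripts, with the 10 bases that differ in capitals. It is shown because no other such stretch differs at more bases.
H2-Q6, chr17:35425119-35425178, plus strand: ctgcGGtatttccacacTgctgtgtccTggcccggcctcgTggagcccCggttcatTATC
H2-Q7, chr17:35439463-35439522, plus strand: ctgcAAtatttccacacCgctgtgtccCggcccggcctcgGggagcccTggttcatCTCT

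**Figure D4:**
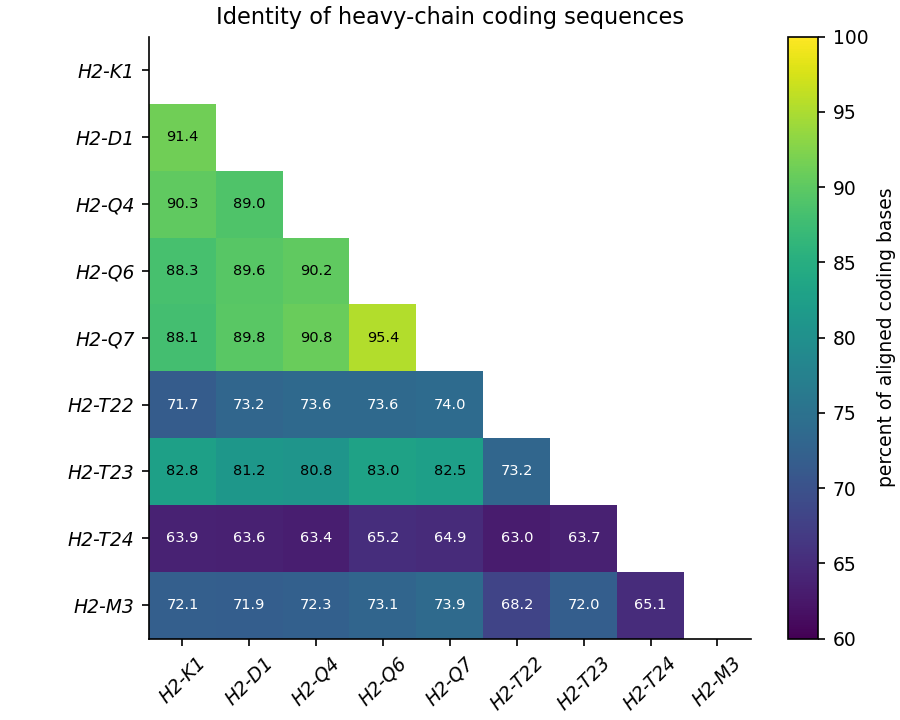
Percent of aligned coding bases that are identical for each pair of the 9 heavy chains, by colour and number. H2-K1, H2-D1, H2-Q4, H2-Q6 and H2-Q7 form a block of similar genes that includes the 95.4% of H2-Q6 and H2-Q7, and H2-T24 has the lowest values, down to 63.0%.

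Counted as words of 31 bases, B2m shared 0% of its transcript sequence with any other annotated gene, H2-M3 4.62% and H2-T24 6.61%. H2-K1 shared 22.8%, H2-T23 25.8% and H2-D1 26.9%. H2-Q7 shared 39.2%, H2-Q6 51.8% and H2-Q4 53.0%. The largest share of the H2-Q7 words was with H2-Q10 (22.4%), beside 8.72% with H2-Q6. For the H2-Q6 words it was with H2-Q4 (24.6%), beside 18.4% with H2-Q7. The number of words found in no other gene was 2641 for H2-Q7, 1218 for H2-Q4 and 991 for H2-Q6, beside 830 for the short B2m. H2-T22 shared the largest part of the 10, 67.4%, of which its neighbour in sequence H2-T10 held 47.2% of the H2-T22 words and the antisense gene A930015D03Rik 27.7%. A930015D03Rik overlaps H2-T24, H2-T23 and H2-T22 on the opposite strand and had no count in the gene-level tables, but 1.27 and 1.58 TPM in the second quantification. The antisense gene Gm11131 overlaps H2-Q4 with 222 and 146 counts, and Patl2 overlaps B2m with 18 and 9 counts. Since the use of strand in counting is not given in the sources used here, reads of these pairs cannot be told apart with certainty.

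All 10 genes were lower in replicate 2 than in replicate 1 on TMM-scaled counts, as were 50.9% of the 10196 genes whose mean count was 100 or more. Their median log2 ratio of replicate 2 over replicate 1 was -0.67, beside -0.01 over all these genes, whose SD was 0.43. A log2 ratio of -0.5 or lower was reached by 8 of the 10 and by 8.09% of all these genes, a threshold picked with the values known. None of the 10 had a log2 ratio of 1 or more in size, as 1.99% of all these genes had. The widest ratio was that of H2-T22, -0.87 with a 95% counting interval of -0.93 to -0.82. H2-D1 had -0.77 (-0.79 to -0.76), H2-T23 -0.72 (-0.77 to -0.68) and H2-K1 -0.71 (-0.73 to -0.69). B2m, the light chain, was nearest to 0 at -0.21 (-0.25 to -0.18), and its interval overlapped that of none of the 9 heavy chains. The nearest of those was H2-Q7 at -0.38 (-0.43 to -0.32). These intervals cover counting error only, and with 1 library on each side no p-value was computed.

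On TMM-scaled counts the second quantification also put 10 of 10 genes lower in replicate 2, beside 51.6% of all its genes with mean counts of 100 or more, with a median of -0.67. By its TPM 7 of the 10 were lower, where 12.8% of all these genes were, and 3 were higher: H2-K1 with 963 and 1169 TPM, B2m with 336 and 383 TPM and H2-Q4 with 137 and 139 TPM. Macrophage markers moved with them: on gene-level counts 12 of 12 were lower in replicate 2 (median log2 ratio -0.34), beside 50.9% of all genes with mean counts of 100 or more. Among the 12 markers Fcgr1, an Fc receptor gene chosen for naming after its value was seen, had -1.04. Their summed level was 4926 and 3745 TPM in the gene-level tables but 2098 and 2311 TPM in the second quantification, so its direction by TPM depends on the table. The part of this and of the starting RNA amount in the class I difference was not tested. Among 34 transcripts of the 10 genes with mean counts of 100 or more, 31 were lower in replicate 2 and 3 were higher. They are parts of the same 10 genes, and the share over all transcripts was not computed. H2-K1-215 had the highest ratio of the 3, 0.52, beside -0.82 for H2-K1-201. The others, named after their values were seen, were H2-D1-204 at 0.06 and H2-K1-210 at 0.07. In the second quantification these 3 stayed higher. There H2-D1-203 turned from -0.43 to 0.47 and H2-K1-207 from -0.25 to 0.29, both likewise named after their values were seen. Without H2-K1-215 the ratio of H2-K1 was -0.94.

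**Figure D5:**
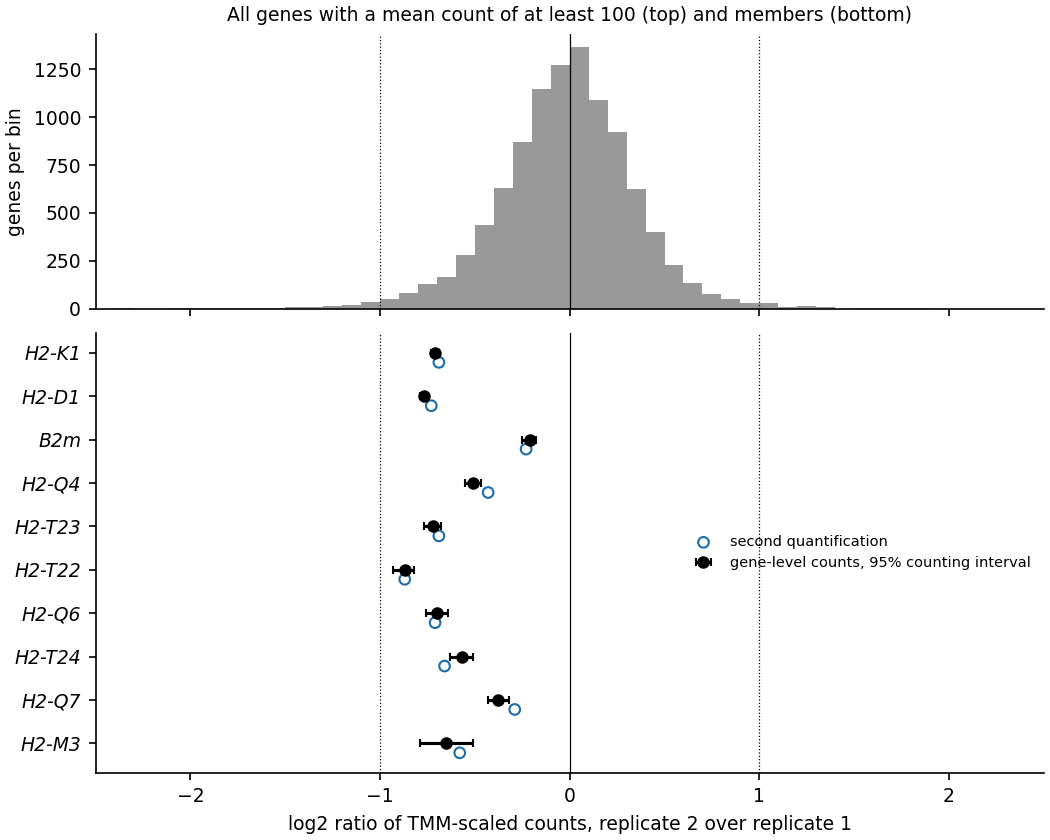
Log2 ratios of TMM-scaled counts, replicate 2 over replicate 1, as a histogram of genes per bin for genes with mean counts of 100 or more (top, drawn from -2.5 to 2.5) and for the 10 class I genes (bottom), with 95% counting intervals on the filled points, open points for the second quantification and dotted lines at -1 and 1. All 10 lie between -0.87 and -0.21, left of the middle of the histogram.

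Of the 27 other class I and class I-like genes with an annotated entry, 17 stayed under 1 TPM in each library, as did 11700 of 22028 protein-coding genes. H2-Q5 had a higher gene-level mean TPM than H2-Q6, H2-T24, H2-Q7 and H2-M3, but its place differed in the second quantification. Of 30 listed, 27 had an annotated entry, 9 reached 1 TPM and 4 reached 10 TPM in each library. To set beside this list and those below, 9791 of all 22028 protein-coding genes reached 1 TPM and 19.7% reached 10 TPM in each library. Top of the list stood H2-Q5 with 116 and 143 TPM and, below it, H2-T10 with 15.3 ± 7.22 TPM, both annotated as polymorphic pseudogenes, with the pseudogene H2-K2 between them at 42.4 and 42.6 TPM. H2-Q5 shares 15.5% of the words of H2-Q7 and 12.9% of those of H2-Q6, and its 2 TPM values came from 1136 and 602 counts. In the second quantification H2-Q5 had 31.4 and 51.1 TPM, below H2-T24 in both libraries (74.4 and 62.0 TPM). There H2-Q5 lay below H2-Q6 (58.8 TPM) and H2-Q7 (44.3 TPM) in replicate 1 and above them (48.9 and 41.7 TPM) in replicate 2. In the gene-level tables no count was given to 14 of the 27, nor to 32459 of all 55536 annotated genes and 7316 of the 22028 protein-coding genes. Among the 14 was the thymic gene H2-T3, for which 3 counts, the number that a count of 0 allows, would come to 0.0893 and 0.104 TPM. The second quantification gave H2-T3 slightly more, 0.111 and 0.136 TPM. Of these 14, H2-Bl had 1.49 and 1.78 TPM in the second quantification, so its level is uncertain (it was chosen for naming after its values were seen). Among the 9 genes of the list with mean counts of 100 or more, 4 were lower in replicate 2 (median log2 ratio 0.04), while the second quantification put 8 of 10 lower (median -0.17). Of all genes with such counts, 50.9% were lower, and 51.6% in the second quantification.

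Peptides reach class I molecules through the immunoproteasome, the transporter of Tap1 and Tap2, and a loading complex in the endoplasmic reticulum. All 13 genes of that list reached 1 TPM and 12 reached 10 TPM in each library. Tapbp, which encodes the tapasin that bridges transporter and heavy chain, was highest at 490 and 347 TPM, or 418 ± 101 TPM. The chaperone genes Calr (241 ± 48.7 TPM) and Canx (139 ± 5.85 TPM) followed, and Tapbpl, a tapasin-related editor of peptides, was lowest at 8.48 ± 2.11 TPM. Lower counts in replicate 2 were found for 10 of 13 (median log2 ratio -0.47), beside 50.9% of all genes with mean counts of 100 or more.

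All 14 regulators described here, which act on class I genes or on interferon and NF-kappaB targets, reached 1 TPM and 8 reached 10 TPM in each library. Of these 14, Stat2, which carries interferon signals, was highest at 295 and 214 TPM, or 254 ± 57.0 TPM. Nlrc5, the coactivator of class I transcription, had 172 and 144 TPM, or 158 ± 19.9 TPM. Irf1, an interferon-induced transcription factor, followed at 96.7 and 58.8 TPM, or 77.8 ± 26.8 TPM. Rfxap, a subunit of the RFX complex, was lowest at 2.06 ± 0.658 TPM. Of the 13 with mean counts of 100 or more, 10 were lower in replicate 2 (median log2 ratio -0.19), beside 50.9% of all such genes.

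The MHC class II pathway shows peptides taken up from outside to CD4 T cells, and its chains had lower levels than H2-K1, H2-D1 and B2m. Of its 11 genes, 7 reached 1 TPM and 5 reached 10 TPM in each library. Cd74, the invariant chain, had 171 ± 38.3 TPM, and the class II chains H2-Ab1 and H2-Aa had 53.3 ± 11.7 and 46.8 ± 13.4 TPM. H2-Eb2 was lowest at 0.0250 ± 0.0212 TPM. All 7 genes with mean counts of 100 or more were lower in replicate 2 (median log2 ratio -0.62), beside 50.9% of all such genes.

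Among 10 receptors that bind class I molecules or belong to families that do, 5 reached 1 TPM and 2 reached 10 TPM in each library. These were the inhibitory receptor genes Lilrb4a, with 634 and 1126 TPM (880 ± 348), and Pirb, with 279 and 245 TPM (262 ± 24.1). Lilrb4a was higher in replicate 2, with a log2 ratio of 0.73, the opposite direction to the heavy chains. Klra2, of the Ly49 family, followed at 5.39 ± 0.530 TPM. Cd8b1, a chain of the CD8 co-receptor of T cells, had no count. Of the 4 with mean counts of 100 or more, 3 were lower in replicate 2 (median log2 ratio -0.17), beside 50.9% of all such genes. In the second quantification 3 of 6 were (median -0.06), beside 51.6%.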

How the data were processed

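Per the deposited notes beside the files, gene-level values came from alignments to the transcriptome and a second quantification came from the reads, with the mm10 assembly and GENCODE mouse release 21. The deposited gene-level and transcript-level tables hold expected counts and TPM, and the second quantification holds estimated counts and TPM. No program, version or strand setting is given in the sources used here. Symbols, positions and transcript types came from GENCODE. Expected counts were rounded to whole numbers, and 26345 entries naming no gene (1.01% of counts in replicate 1, 0.336% in replicate 2) were left out of library sizes. The second quantification gave 30419009 and 32279044 counts and no value for 86 genes.

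Log2 ratios used TMM factors of edgeR 4.0.16 (R 4.3.3) on 14892 genes past filterByExpr and a prior count of 0.5; DESeq2 1.42.0 size factors were an alternative. Counting intervals on a ratio are 95% Clopper-Pearson intervals, which are exact. Like the floor of 3 counts, they cover counting error only. The ratio step was tested on simulated data. Coding sequences were aligned with Biopython 1.88. The 10 genes and all lists were chosen with earlier results of these data known. One further gene of the regulator list is not reported here. Named are all 10 genes, the 3 highest and the lowest of each pathway or receptor list (of each marker list, the highest), the protein-coding genes next to H2-K1 by mean TPM, the highest transcript of each gene with any over 20% of it, and overlapping genes with a count.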

Additional observations from a re-analysis of the deposited data

How the results depend on the processing

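Settings that leave out a library cannot move a mean past the SD of 2 libraries and are not counted here, nor is the protein-coding share rescaled over protein-coding genes, which is fixed. Of the other settings, 18 left a summary value within the spread between libraries or within 1.5 times the count, and 12 moved it. Among values of single genes, 56 did the former and 26 the latter. For the 10 genes, no setting changed the sign of a log2 ratio, while single transcripts and genes of other lists did change sign in the second quantification. The median level of the 10 genes, 193 TPM, was 89.5 TPM in the second quantification and 686 TPM with TPM rescaled over protein-coding genes. The 203 genes with a log2 ratio of 1 or more in size became 329 with a minimum mean count of 50, 5944 with no filter and 500 in the second quantification. The ratio of H2-K1 over H2-D1, 1.68 on average, was 0.715 over protein-coding transcripts, 0.691 over those of the second quantification, 0.818 without H2-K1-215 and 0.756 by expected counts. Heavy chains over B2m went from 6.34 to 4.24 over protein-coding transcripts. These 5 settings were chosen after seeing the data. The median retained-intron share went from 23.7% to 29.8% by counts, and the number of genes at the TPM minimum from 10 to 5 when it was 100.

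With only 1 library at a time, the median level ran from 139 to 247 TPM, the share of protein-coding TPM from 1.55% to 2.35%, H2-K1 over H2-D1 from 1.42 to 1.94, heavy chains over B2m from 5.77 to 6.91 and the retained-intron median from 22.3% to 25.1%. No log2 ratio between replicates exists with 1 library left out. No paired analysis was possible because the series has 1 group, so no replicate number is shared between groups. The 2 libraries limit every SD to 1 degree of freedom.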
